A study of Mus musculus with 15 samples.

Results

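Genes of the neuromuscular junction were followed in the tibialis anterior, a muscle of the lower hindlimb, of adult C57BL/6 mice 2 months after an AAV6 injection. The set holds 39 genes chosen by name, and all 39 were found among the 42396 gene entries of both count tables. C-del muscle had received AAV6 carrying LSMEM2 C-del, a form of a leucine-rich single-pass membrane protein whose deletion the labels do not describe. Mock muscle had received AAV6 carrying EGFP, so every group had been given a vector and no uninjected muscle was compared. The groups were female C-del (4 libraries), female mock (3), male C-del (4) and male mock (4). Each sex has a table of its own, and an effect of sex cannot be told apart from one of the table. The sources used here do not give the promoter that drives the vector, the animals' age in weeks or whether a library is 1 mouse or a pool. The p-values therefore measure the spread from library to library, which may be technical.

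At the neuromuscular junction the motor nerve releases acetylcholine onto receptors packed into the crests of the muscle membrane. Agrin, secreted by the nerve, binds LRP4, which activates the receptor kinase MuSK. With the adaptor DOK7 bound to it, MuSK directs rapsyn to gather the receptors. The few nuclei beneath the synapse transcribe most of these genes, and after denervation some of them, Chrna1, Chrng and Musk among them, are transcribed along the whole fibre. The set was ordered by role into receptor subunits, the agrin-LRP4-MuSK path, the synaptic cleft and its matrix, neuregulin receptors and synaptic transcription, the scaffold and cytoskeleton, and a last group of channels, adhesion proteins and enzymes. In bulk RNA, fewer cells or nuclei of a type and less RNA per cell cannot be told apart.

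Total counts per library were 10239329 to 12054871 in female C-del, 9285145 to 10790101 in female mock, 15304503 to 17744015 in male C-del and 14297620 to 15454510 in male mock muscle. Lsmem2, the delivered gene, stood at 1361 to 2705 CPM (counts scaled to the TMM-adjusted library total) in female C-del against 30.0 to 32.8 CPM in female mock libraries, and at 481 to 2355 CPM in male C-del against 28.5 to 29.7 CPM in male mock libraries. It overlaps Ifrd2 and Sema3b on the genome. The extraction text names hearts, whereas the tissue label is skeletal muscle: 5 skeletal muscle genes summed to between 88877 and 126737 CPM in every library, and 4 heart genes to between 3.004 and 7.78 CPM. Transcripts of motor neurons were nearly absent, with 9 markers summing to at most 0.351 CPM and Chat, Slc18a3, Slc5a7, Isl1 and Mnx1 at 0 in all 15 libraries. One library stood apart by transcript length. The deviation of 902 genes with at least 8 kb of merged exons was taken, junction genes left out. In female mock library 3 they lay a median of 0.56 log2 units below the median of the 7 female libraries. Their median lay 0 to 0.02 units above it in the other 6 libraries, and that of shorter genes was at 0. Pairs of female mock libraries differed by a chi-square per gene of 23.2 to 40.2, against 3.35 to 9.17 for female C-del, 4.26 to 13.6 for male C-del and 2.48 to 8.76 for male mock pairs. Among the males, C-del libraries 1 and 2 lay nearer to each other (chi-square per gene 4.52) and so did 3 and 4 (4.26) than libraries of unlike pairs did (11.2 to 13.6).

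Of the 39 genes, 37 passed the filter on low counts, and Chrng and Erbb4 did not. Each sex was tested with edgeR's quasi-likelihood test over all genes, with Benjamini-Hochberg adjustment, and a gene is said to rise or fall only at an adjusted p under 0.05. In females 0 of 37 junction genes rose, where 0.0141% of all 14220 genes did, and 0 fell, where 0% of all genes did. At an unadjusted p under 0.05, 6 junction genes were higher and 2 lower in female C-del muscle. Over both directions, 1692 of all 14220 genes were under that threshold. DESeq2 called 1 of the 37, Kcnn3, higher. Without female mock library 1, edgeR called 1050 genes in females, and 1 junction gene among them, Lama5. In males 1 of 37 rose (Musk), where 5.8% of all 14543 genes did, and 2 of 37 fell (Gfpt1 and Abi3bp), where 5.37% of all genes did. At an unadjusted p under 0.05, 6 were higher and 3 lower in male C-del muscle. Over both directions, 3774 of all 14543 genes were under that threshold. The median log2 fold change of the 37 genes was 0.13 in females and 0.04 in males, beside -0.01 in females and -0.005 in males over all genes tested. In shares, the junction genes that passed in males were close to or below the background of all genes.

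Both sexes were then put in 1 fit. On the average C-del effect, 2 of 37 junction genes rose, Musk and Kcnn3, where 2.42% of 15272 genes did, and 0 fell, where 1.99% did. For the difference of the effects, female minus male, 0 of 37 were higher, where 0.17% of all genes were, and 0 were lower, where 0.183% were. At an unadjusted p under 0.05, 6 junction genes had a higher and 2 a lower effect in females. Over both directions, 2574 of all 15272 genes were under that threshold. DESeq2 called 1 junction gene, Chrna1, lower. The median log2 value of the 37 was 0.08 for the average and 0.08 for the difference, beside -0.02 for both over all genes.

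**Figure D1:**
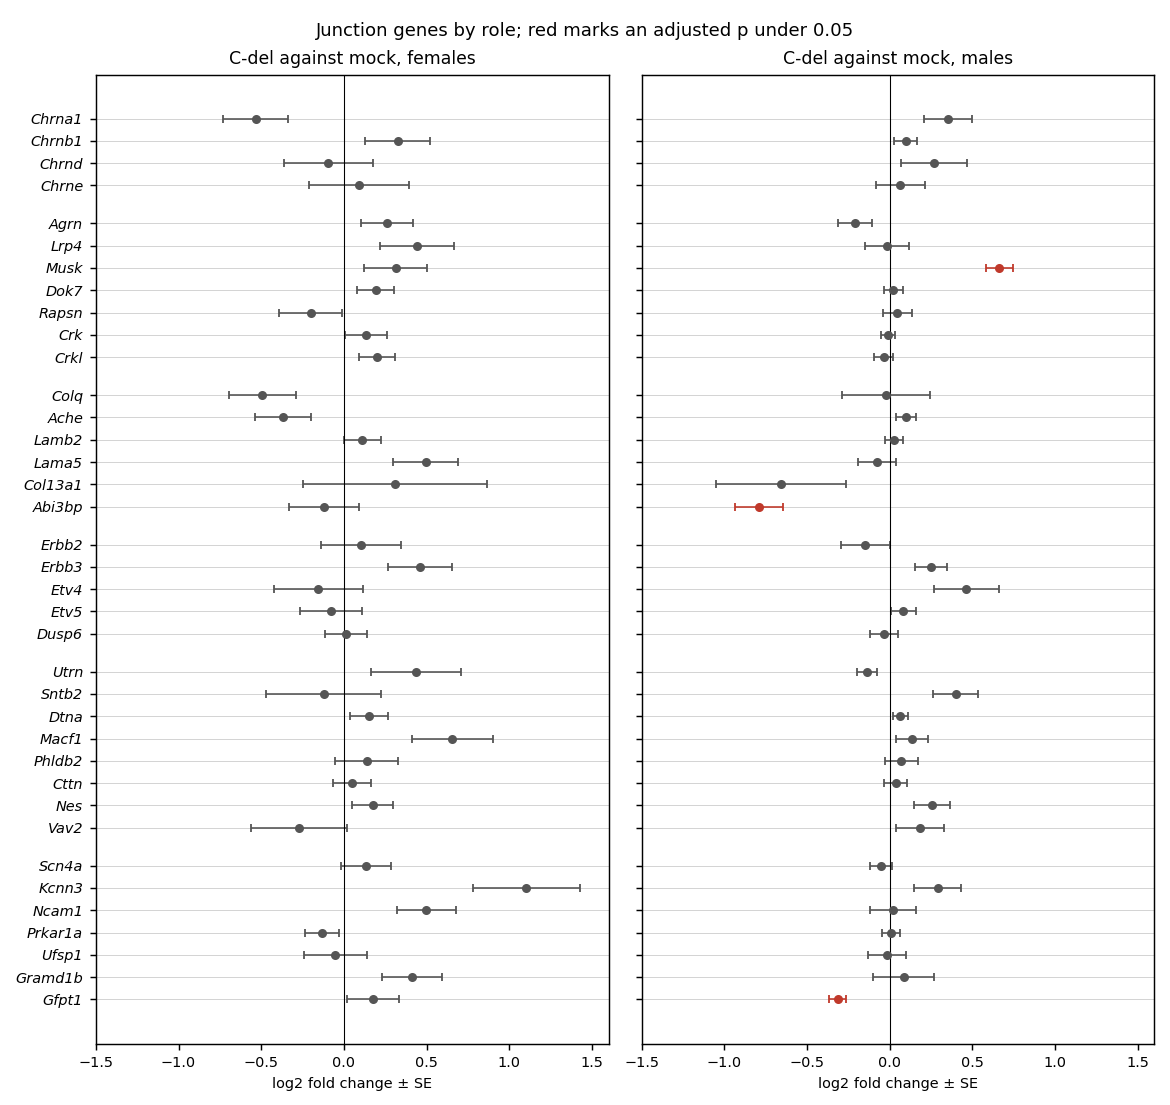
Log2 fold change of C-del over mock muscle for the 37 tested junction genes, grouped by role from receptor subunits at the top to enzymes at the bottom, in females (left) and males (right); points are estimates and bars are ± 1 SE. The 3 red points, Musk, Abi3bp and Gfpt1 in males, had an adjusted p under 0.05, and the bars of females are wider for most genes.

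Musk, the receptor kinase that organises the postsynaptic membrane, was the 1 junction gene that rose in males. The gene lies at chr4:58285729-58377848 (GRCm38.p6). Musk stood at 7.07, 10.9, 12.0 and 10.6 CPM in female C-del libraries, against 8.12, 7.81 and 8.58 CPM in female mock libraries. In males Musk stood at 36.3, 37.5, 34.8 and 30.7 CPM in C-del libraries, against 24.0, 23.6, 19.4 and 21.0 CPM in mock libraries. Female C-del library 1 lay below every female mock library and the other 3 lay above all of them, whereas the male groups did not overlap. The means were 10.1 ± 2.14 CPM in female C-del (SD, n = 4) and 8.17 ± 0.388 CPM in female mock muscle (n = 3), and 34.8 ± 2.97 CPM in male C-del muscle, against 22.0 ± 2.20 CPM in male mock muscle (n = 4 each). Musk was 1.58-fold higher in male C-del muscle, a log2 fold change of 0.66 ± 0.08 (SE, adjusted p = 0.000133), and in females its log2 fold change was 0.31 ± 0.19 (adjusted p = 0.555). The effects did not pass the test of a difference between the sexes, which was -0.35 on the log2 scale with an interval of 2 SE from -0.75 to 0.04 (adjusted p = 0.376). Averaged over both sexes Musk was 1.40-fold higher (0.49 ± 0.10, adjusted p = 0.00972).

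The male rise of Musk was called in all 16 alternative settings, with log2 values of 0.55 to 0.72 and an adjusted p of at most 0.0298, which was reached when neighbouring columns were summed into 2 samples a group. Macrophage markers summed to 150.3 and 171 CPM in male C-del libraries 1 and 2 and to 45.8 and 58.0 CPM in libraries 3 and 4. Male mock libraries held 57.7 to 72.4 CPM of them. Without C-del libraries 1 and 2 the log2 fold change of Musk was 0.57 (adjusted p = 0.00166). Satellite cell markers (6 genes, 5 tested) summed to 52.7 to 61.0 CPM in male C-del muscle, against 48.2 to 52.0 CPM in male mock muscle. Of the 5 tested, 2 rose in males, Cdh15 and Sdc4, where 5.8% of all genes did. The part of these cells in the Musk value was not tested. The average effect of Musk lost its call when female mock libraries 2 and 3 were both left out (0.49, adjusted p = 0.0517).

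The promoters of Musk and of receptor subunits are known to carry E-boxes, CANNTG, the sites of myogenic factors, and Chrne also an N-box, CCGGAA, the site of the ETS factor GABP. The 3 promoters below are shown because Musk rose in males while Chrna1 and Chrne, genes of the same synaptic nuclei, did not pass. They are RefSeq sequences of GRCm38.p6 from 250 bases before to 50 after an annotated transcript start, given 5′ to 3′ on the gene's strand, with the matches in capitals. Musk lies on the plus strand (chr4:58285712-58286011), and Chrna1 (chr2:73580289-73580588) and Chrne (chr11:70619145-70619444) on the minus strand. The start used for Musk, position 58285962, lies 233 bases inside the gene's outer bounds, that for Chrne 19 bases inside and that for Chrna1 at the gene's first base, so most of the window shown for Musk lies within the annotated gene and other Musk transcripts begin upstream.
Musk: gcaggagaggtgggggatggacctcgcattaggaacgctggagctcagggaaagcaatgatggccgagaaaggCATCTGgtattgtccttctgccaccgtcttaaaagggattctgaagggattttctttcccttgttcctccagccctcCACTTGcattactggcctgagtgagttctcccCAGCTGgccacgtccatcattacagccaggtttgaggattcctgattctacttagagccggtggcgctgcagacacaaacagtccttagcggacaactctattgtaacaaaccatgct
Chrna1: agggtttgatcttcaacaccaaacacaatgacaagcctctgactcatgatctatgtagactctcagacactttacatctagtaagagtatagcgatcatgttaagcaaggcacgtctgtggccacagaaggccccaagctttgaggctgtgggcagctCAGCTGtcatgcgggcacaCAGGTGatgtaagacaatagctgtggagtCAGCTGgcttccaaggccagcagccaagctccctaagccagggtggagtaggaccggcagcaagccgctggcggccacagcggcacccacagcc
Chrne: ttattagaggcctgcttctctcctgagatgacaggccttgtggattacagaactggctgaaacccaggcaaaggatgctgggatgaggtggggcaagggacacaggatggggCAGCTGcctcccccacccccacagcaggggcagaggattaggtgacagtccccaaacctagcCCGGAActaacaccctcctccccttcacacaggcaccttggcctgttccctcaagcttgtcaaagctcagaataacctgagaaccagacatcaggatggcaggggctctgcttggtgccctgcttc
Musk held 3 CANNTG and no CCGGAA, Chrna1 3 CANNTG and no CCGGAA, and Chrne 1 CANNTG and 1 CCGGAA, with no overlap between motifs. The search covered both strands, so CCGGAA was also sought as TTCCGG. At least 3 CANNTG were found in 17.6% and at least 1 CCGGAA in 14.9% of all 32851 promoters of the same length, so these counts are not rare, and a match is not a shown binding site.

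No receptor subunit passed in either sex. In adult muscle the acetylcholine receptor is built from the α (Chrna1), β (Chrnb1), δ (Chrnd) and ε (Chrne) subunits, with γ (Chrng) in place of ε in the embryo and in denervated fibres. In females 2 of the 4 tested subunits had a log2 fold change above 0, from -0.53 to 0.32, and in males all 4 did, from 0.06 to 0.35.

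Chrna1 stood at 8.32, 8.09, 11.0 and 8.46 CPM in female C-del libraries, against 11.0, 11.1 and 17.1 CPM in female mock libraries. The male libraries of Chrna1 held 12.1, 15.1, 11.5 and 12.4 CPM in C-del muscle, against 12.7, 10.7, 7.30 and 9.37 CPM in mock muscle. In females 3 of 4 C-del libraries lay below all mock libraries, and C-del library 3 lay just above the lowest of them, while in males mock library 1 lay above 3 of the C-del libraries. On the log2 scale the fold change was -0.53 ± 0.20 in females (adjusted p = 0.319) and 0.35 ± 0.15 in males (adjusted p = 0.148). Chrna1, the subunit that binds acetylcholine, had the largest difference between the sexes of the 4 tested subunits, a female minus male value of -0.89 ± 0.26 that did not pass in edgeR (adjusted p = 0.0943; interval of 2 SE from -1.41 to -0.36). It passed in DESeq2 (adjusted p = 0.0436) and without female mock library 1 (-0.98, adjusted p = 0.0285). Female mock library 3, the one with low counts of long transcripts, held the highest Chrna1 value, and without it the difference was -0.64 (adjusted p = 0.196). Over 20 alternatives the adjusted p ran from 0.0285 to 0.450. In males the call was made without mock library 1 (0.49, adjusted p = 0.0449).

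Chrnb1 stood at 25.2, 37.4, 41.7 and 33.1 CPM in female C-del libraries, against 23.5, 24.4 and 34.5 CPM in female mock libraries, and the groups overlapped. Male C-del muscle had 29.8, 33.2, 31.1 and 27.3 CPM of Chrnb1, against 29.7, 28.9, 26.3 and 28.6 CPM in male mock muscle. The log2 fold change of Chrnb1 was 0.32 ± 0.19 in females (adjusted p = 0.548) and 0.10 ± 0.07 in males (adjusted p = 0.412). In males the interval of 2 SE, -0.04 to 0.23, held changes of the β subunit to a narrow band around 0, while the female interval was -0.06 to 0.71.

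Chrnd stood at 2.86, 2.02, 2.87 and 3.02 CPM in female C-del libraries, against 3.95, 2.19 and 2.53 CPM in female mock libraries. Chrnd in the male libraries read 3.997, 4.02, 3.68 and 3.49 CPM after C-del, against 4.33, 3.69, 2.52 and 2.01 CPM after mock injection. The δ subunit was low in every library, and both pairs of groups overlapped. Its log2 fold change was -0.09 ± 0.27 in females (adjusted p = 0.912) and 0.27 ± 0.20 in males (adjusted p = 0.432), where it turned to -0.08 without mock libraries 3 and 4.

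Chrne stood at 3.76, 1.84, 4.06 and 3.02 CPM in female C-del libraries, against 3.51, 2.28 and 3.19 CPM in female mock libraries. In males Chrne stood at 4.84, 3.74, 4.22 and 3.95 CPM in C-del libraries, against 5.04, 3.49, 3.75 and 3.68 CPM in mock libraries. The ε subunit, which marks the adult receptor, overlapped between the groups in both sexes. Its log2 fold change was 0.09 ± 0.30 in females (adjusted p = 0.921) and 0.06 ± 0.15 in males (adjusted p = 0.828), with a sign that changed between settings. Chrne is entered in the tables under 2 names, and the first carried 47.5% to 51.0% of their sum. With both added, Chrne stood at 3.77 to 8.20 CPM in female C-del libraries, against 4.56 to 7.24 CPM in female mock libraries, and at 7.54 to 9.67 CPM in male C-del libraries, against 7.11 to 9.89 CPM in male mock libraries. The gene also overlaps 4930544D05Rik, which stood at no more than 0.770 CPM.

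Chrng stood at 0, 0, 0.169 and 0 CPM in female C-del libraries, against 0, 0.439 and 0.440 CPM in female mock libraries. The male libraries of Chrng held 0.258, 0.227, 0.0670 and 0.174 CPM in C-del muscle, against 0.129, 0.201, 0 and 0 CPM in mock muscle. The embryonic γ subunit was thus near the limit of detection in all 4 groups. A count of 0 still allows 3 counts, or 0.268 to 0.329 CPM in such female and 0.205 to 0.208 CPM in such male libraries. This limit covers counting error only. No fold is given for Chrng.

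**Figure D2:**
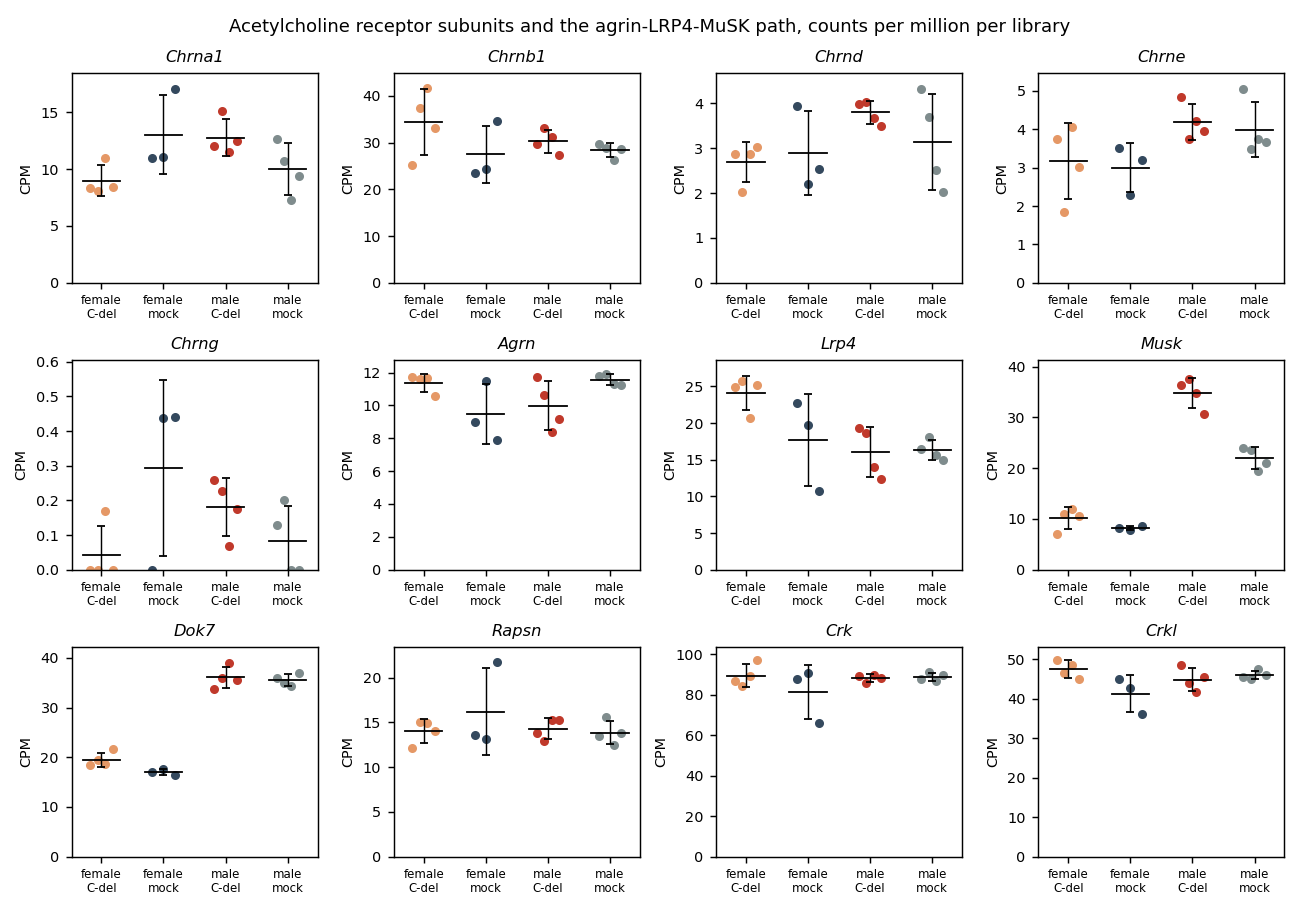
CPM in each library of the 5 receptor subunits and the 7 genes of the agrin-LRP4-MuSK path (vertical axes from 0, linear), for female C-del, female mock, male C-del and male mock muscle from left to right; points are libraries, long bars means and whiskers ± 1 SD. Musk is the panel in which the male C-del points, 30.7 to 37.5 CPM, all lie above the male mock points, 19.4 to 24.0 CPM, and Musk and Dok7 sit lower in both female groups than in both male groups.

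Along the rest of the path no gene passed in either sex. Agrn stood at 11.7, 11.6, 11.7 and 10.6 CPM in female C-del libraries, against 9.001, 11.5 and 7.92 CPM in female mock libraries. Male C-del muscle had 11.7, 10.7, 8.37 and 9.19 CPM of Agrn, against 11.8, 11.9, 11.3 and 11.2 CPM in male mock muscle. Agrn encodes agrin, of which muscle also makes a form without clustering activity. Its estimates pointed opposite ways: the log2 fold change was 0.26 ± 0.15 in females (adjusted p = 0.544) and -0.21 ± 0.10 in males (adjusted p = 0.213), and the difference of 0.47 ± 0.18 did not pass (adjusted p = 0.183). Without male C-del libraries 1 and 2, Agrn was called lower in males (-0.40, adjusted p = 0.0352). Without female mock library 3 the female estimate was 0.15.

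Lrp4 stood at 24.9, 25.7, 20.7 and 25.2 CPM in female C-del libraries, against 22.7, 19.7 and 10.7 CPM in female mock libraries. Lrp4 in the male libraries read 19.3, 18.7, 14.1 and 12.3 CPM after C-del, against 16.4, 18.1, 15.7 and 14.9 CPM after mock injection. Lrp4, the agrin receptor, was low in female mock library 3 alone, and the groups of both sexes overlapped. The estimated log2 change was 0.44 ± 0.22 in females (adjusted p = 0.477), but 0.18 without that library, and -0.02 ± 0.13 in males (adjusted p = 0.953).

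Dok7 stood at 18.4, 19.4, 18.6 and 21.6 CPM in female C-del libraries, against 17.01, 17.6 and 16.5 CPM in female mock libraries. In males Dok7 stood at 33.8, 35.9, 39.1 and 35.5 CPM in C-del libraries, against 35.9, 34.9, 34.3 and 36.9 CPM in mock libraries. Dok7, the cytoplasmic activator of MuSK, was higher in each female C-del library than in each female mock library, by a small amount, and overlapped in males. On the log2 scale the fold change was 0.19 ± 0.11 in females (adjusted p = 0.535) and 0.02 ± 0.06 in males (adjusted p = 0.857), where the interval of 2 SE was -0.09 to 0.14. The male rise of Musk thus had no counterpart of like size in Dok7, whose male interval lies below the Musk interval of 0.50 to 0.82.

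Rapsn stood at 12.2, 15.1, 14.96 and 14.003 CPM in female C-del libraries, against 13.6, 13.2 and 21.8 CPM in female mock libraries. The male libraries of Rapsn held 13.8, 12.9, 15.3 and 15.2 CPM in C-del muscle, against 13.4, 15.6, 12.5 and 13.8 CPM in mock muscle. Rapsn encodes rapsyn, which anchors the receptor clusters, and its groups overlapped in both sexes, with female mock library 3 the highest of all. Its log2 fold change was -0.20 ± 0.19 in females (adjusted p = 0.703), turning to 0.07 without that library, and 0.05 ± 0.09 in males (adjusted p = 0.791). Rapsn is entered under 2 names as well, the first with 50% to 50.6% of their sum. Whether its reads are split between them or counted in both was not tested.

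Crk and Crkl encode adaptors that bind phosphorylated DOK7. Crk stood at 86.9, 84.2, 89.3 and 97.1 CPM in female C-del libraries, against 87.6, 90.6 and 66.1 CPM in female mock libraries. Male C-del muscle had 89.1, 85.9, 90.0 and 88.1 CPM of Crk, against 87.9, 91.0, 86.7 and 89.9 CPM in male mock muscle. Crkl stood at 49.8, 46.5, 48.6 and 44.8 CPM in female C-del libraries, against 44.9, 42.7 and 36.1 CPM in female mock libraries. The 2 adaptors varied little, with female mock library 3 the lowest for both. Crkl in the male libraries read 48.4, 43.8, 41.6 and 45.4 CPM after C-del, against 45.5, 45.0, 47.4 and 46.0 CPM after mock injection. In males the intervals of 2 SE were -0.10 to 0.08 for the Crk and -0.15 to 0.07 for the Crkl log2 fold change, and in females they were -0.12 to 0.39 for Crk and -0.01 to 0.42 for Crkl.

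In the synaptic cleft and its matrix, 1 of 6 genes fell in males (Abi3bp), where 5.37% of all genes did, and 0 passed in females. Abi3bp encodes a secreted matrix protein and lies at chr16:56477801-56690135. Abi3bp stood at 16.999, 13.8, 12.7 and 9.97 CPM in female C-del libraries, against 12.7, 18.5 and 12.2 CPM in female mock libraries. In males Abi3bp stood at 11.6, 12.2, 9.38 and 14.1 CPM in C-del libraries, against 21.1, 16.1, 24.9 and 20.1 CPM in mock libraries. The female groups overlapped, and each male C-del library lay below each male mock library. Abi3bp was 1.73-fold lower in male C-del muscle (-0.79 ± 0.14, adjusted p = 0.00540), and its female log2 fold change was -0.12 ± 0.21 (adjusted p = 0.844). The difference between the sexes did not pass (0.67 ± 0.26, adjusted p = 0.195), nor did the average effect (-0.46 ± 0.13, adjusted p = 0.0547).

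In males the tendon markers had a median log2 fold change close to that of Abi3bp. Fibroblast markers (5 genes) summed to 853 to 1087 CPM in male C-del muscle, against 840.4 to 2049 CPM in male mock libraries, with 2049 CPM in mock library 3, which also had the highest Abi3bp. Tendon markers (7 genes) summed to 193 to 329 CPM in male C-del muscle, against 308 to 480.5 CPM in male mock libraries, and their median log2 fold change was -0.77. Of the 7, edgeR called 1 lower, Tnmd (-0.80 ± 0.22, adjusted p = 0.0438), where 5.37% of all genes fell. An unadjusted p under 0.05 was found for 5 of the 7, where 3774 of all 14543 genes tested in males had one. DESeq2 called 4, and its share over all genes in males is not given here. Fmod stood at 76.1 ± 19.6 CPM in male C-del muscle, against 158 ± 48.4 CPM in male mock muscle. The part of tendon cells in the Abi3bp value was not tested. Without mock libraries 3 and 4, Abi3bp was still called lower in males (-0.65, adjusted p = 0.0346), and without C-del libraries 1 and 2 it was not (-0.79, adjusted p = 0.0808).

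The other 5 genes of the cleft did not pass in either sex. Colq encodes the collagen tail that anchors acetylcholinesterase. It stood at 3.94, 4.14, 5.41 and 3.32 CPM in female C-del libraries, all below the 5.598, 6.58 and 5.61 CPM of female mock libraries, a log2 fold change of -0.49 ± 0.20 (adjusted p = 0.372). In males it ranged over 4.62 to 6.69 CPM in C-del and 3.89 to 9.57 CPM in mock libraries. Ache, the acetylcholinesterase itself, ranged over 16.7 to 24.3 CPM in female C-del muscle, against 22.8 to 30.5 CPM in female mock libraries, and over 36.2 to 38.7 CPM in male C-del muscle, against 32.2 to 37.8 CPM in male mock libraries. The female minus male difference of the Ache effect, -0.47 ± 0.17 on the log2 scale, did not pass (adjusted p = 0.182). Lama5, the laminin α5 chain, stood at 29.6, 34.3, 33.2 and 32.1 CPM in female C-del and 30.6, 22.8 and 15.4 CPM in female mock libraries, with mock library 1 inside the C-del range and library 3 the lowest. Its log2 fold change in females was 0.49 ± 0.20 (adjusted p = 0.361), which was 0.28 without mock library 3 and was called without mock library 1 (0.75, adjusted p = 0.0286). Lamb2, the laminin β2 chain concentrated at synapses, ranged over 154 to 173 CPM in female C-del muscle, against 138 to 175 CPM in female mock libraries, and over 122 to 141 CPM in male C-del muscle, against 119.8 to 136 CPM in male mock libraries. Col13a1, a membrane collagen of the junction, stayed between 0.403 and 3.002 CPM in all libraries.

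Among the neuregulin receptors and the factors of synaptic transcription no gene passed in either sex. Erbb3, the neuregulin receptor abundant in Schwann cells, stood at 8.14, 10.4, 11.1 and 10.7 CPM in female C-del libraries, against 9.44, 6.23 and 6.38 CPM in female mock libraries. In males it stood at 10.1, 8.62, 9.24 and 10.5 CPM in C-del libraries, all above the 7.89, 8.12, 7.85 and 8.54 CPM of mock libraries, while the female groups overlapped. The estimated log2 change was 0.46 ± 0.19 in females (adjusted p = 0.391) and 0.25 ± 0.10 in males (adjusted p = 0.111), and the average of 0.36 ± 0.10 just missed the threshold (adjusted p = 0.0547). DESeq2 called the average (adjusted p = 0.0259), as did edgeR without female mock library 1 (0.47, adjusted p = 0.00302) or female C-del library 1 (adjusted p = 0.0263). Schwann cell markers (12 genes, 10 tested) summed to 97.9 to 157 CPM in female C-del muscle, against 95.6 to 142 CPM in female mock libraries, and to 109 to 122 CPM in male C-del muscle, against 109.8 to 162 CPM in male mock libraries. Of them 0 rose, and 1, Ngfr, fell in males (-0.94 ± 0.23, adjusted p = 0.0177), where 5.37% of all genes did. The sums of the groups overlapped in both sexes.

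Erbb2 ranged over 2.48 to 4.29 CPM in female C-del muscle, against 2.74 to 3.63 CPM in female mock libraries, and over 2.89 to 3.93 CPM in male C-del muscle, against 3.47 to 4.59 CPM in male mock libraries. It overlaps Mien1, which reached 33.3 CPM, and as strand may not have been used their reads may be mixed. Erbb4 stayed at or below 0.507 CPM in all 15 libraries and was not tested. It too is entered under 2 names, and with both added it reached 0.702 CPM, in female mock library 2. Etv4 and Etv5 encode ETS factors downstream of neuregulin. Etv4 had a log2 fold change of 0.46 ± 0.20 in males (adjusted p = 0.152), called only when C-del library 4 was left out (0.61, adjusted p = 0.0480). Etv5 ranged over 11.3 to 15.98 CPM in female C-del muscle, against 10.5 to 16.6 CPM in female mock libraries, and over 17.3 to 19.3 CPM in male C-del muscle, against 15.8 to 19.4 CPM in male mock libraries. Dusp6, a phosphatase of ERK that is itself induced by ERK signalling, stayed between 13.2 and 18.2 CPM in all libraries. It overlaps Gm34921, which reached 4.51 CPM.

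In the scaffold and cytoskeleton 0 of 8 genes passed in either sex. In females 6 of the 8 had a log2 fold change above 0, up to 0.66, and in males 7 of 8, up to 0.40. Macf1, a giant linker of microtubules and actin, stood at 122, 178, 150.5 and 170.3 CPM in female C-del libraries, against 98.1, 135 and 61.8 CPM in female mock libraries, and its log2 fold change of 0.66 ± 0.24 (adjusted p = 0.326) was 0.41 without mock library 3. Genes that overlap Macf1 on the genome reached up to 14.6 CPM. Utrn encodes utrophin, the synaptic relative of dystrophin. It stood at 50.5, 52.0, 56.0 and 56.2 CPM in female C-del libraries, against 47.1, 51.7 and 19.9 CPM in female mock libraries, so that library 3 alone lay far below the rest. In male muscle Utrn stood at 53.3, 56.6, 58.0 and 54.7 CPM in C-del and 60.8, 65.9, 63.7 and 54.7 CPM in mock libraries, a log2 fold change of -0.14 ± 0.06 (adjusted p = 0.156). Sntb2, β2-syntrophin, had a log2 fold change of 0.40 ± 0.14 in males (adjusted p = 0.0778), with 5.93, 5.33, 6.36 and 4.36 CPM in C-del and 3.88, 4.70, 4.09 and 3.96 CPM in mock libraries and 1 C-del library inside the mock range. It passed when that C-del library, number 4, was left out (0.50, adjusted p = 0.0308). Nes, the intermediate filament nestin, had a log2 fold change of 0.26 ± 0.11 in males (adjusted p = 0.173) and 0.22 ± 0.08 on average (adjusted p = 0.160).

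The remaining scaffold genes are given by their ranges. Dtna, α-dystrobrevin, ranged over 135 to 149 CPM in female C-del muscle, against 111 to 145 CPM in female mock libraries, and over 129 to 141 CPM in male C-del muscle, against 122 to 132 CPM in male mock libraries. Phldb2, known as LL5β, stayed between 7.55 and 12.4 CPM, and Cttn, the actin-binding cortactin, between 23.8 and 30.6 CPM in all libraries. Vav2, an exchange factor of small GTPases, was widest in female mock libraries, at 7.24, 12.5 and 4.84 CPM, against 5.83 to 8.14 CPM in female C-del libraries.

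In the last group 1 of 7 genes fell in males, Gfpt1, where 5.37% of all genes did, and 0 passed in females. Gfpt1 encodes the first enzyme of the hexosamine pathway, which feeds protein glycosylation, and human GFPT1 is a gene of congenital myasthenia. It lies at chr6:87042846-87092207. Gfpt1 stood at 54.0, 56.2, 57.1 and 55.0 CPM in female C-del libraries, against 52.1, 59.4 and 35.6 CPM in female mock libraries. The male libraries of Gfpt1 held 45.6, 44.6, 49.2 and 47.8 CPM in C-del muscle, against 60.6, 58.5, 57.2 and 56.4 CPM in mock muscle. Each male C-del library lay below each male mock library, and the female C-del libraries lay between the highest and the lowest female mock library. Gfpt1 was 1.24-fold lower in male C-del muscle (-0.32 ± 0.05, adjusted p = 0.00145), and its female log2 fold change was 0.18 ± 0.16 (adjusted p = 0.679). The difference of 0.49 ± 0.15 did not pass (adjusted p = 0.112), although it did without female mock library 1 (adjusted p = 0.0421) or 2 (adjusted p = 0.0440). The male call was lost in the fit of all 15 libraries (adjusted p = 0.143) and with neighbouring columns summed (adjusted p = 0.0868), at nearly the same log2 value of -0.31.

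Kcnn3, the calcium-activated potassium channel SK3, known from denervated muscle, lies at chr3:89520164-89672494. Kcnn3 stood at 9.04, 12.2, 12.8 and 11.1 CPM in female C-del libraries, against 6.70, 6.76 and 2.20 CPM in female mock libraries. Male C-del muscle had 6.32, 5.50, 5.02 and 4.36 CPM of Kcnn3, against 3.75, 4.63, 3.96 and 4.9999 CPM in male mock muscle. Each female C-del library lay above each female mock library, with mock library 3 the lowest of all, while the male groups overlapped. On the log2 scale the fold change was 1.10 ± 0.32 in females (adjusted p = 0.215), or 0.75 without that library, and 0.29 ± 0.14 in males (adjusted p = 0.215). Averaged over both sexes Kcnn3 was 1.62-fold higher (0.70 ± 0.17, adjusted p = 0.0318), and 0.53 without female mock library 3 (adjusted p = 0.0132). When 1 library was left out at a time, the average was called in 5 of 15 fits: those without male C-del library 4, female C-del library 1 or any 1 of the female mock libraries. It was not called without any 1 of the male mock libraries, male C-del library 1, 2 or 3, or female C-del library 2, 3 or 4 (adjusted p 0.0515 to 0.0707). In females alone DESeq2 called Kcnn3 (adjusted p = 0.0421), as did the female contrast in the fit of all 15 libraries (adjusted p = 0.0217).

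Ncam1, an adhesion molecule of synapses and of denervated fibres, stood at 7.87, 10.1, 7.44 and 8.06 CPM in female C-del libraries, all above the 5.05, 5.79 and 6.93 CPM of female mock libraries (0.50 ± 0.18, adjusted p = 0.310). In males Ncam1 ranged over 6.51 to 6.70 CPM in C-del and 4.91 to 8.53 CPM in mock libraries. Gramd1b, which encodes a sterol transfer protein, had a log2 fold change of 0.41 ± 0.18 in females (adjusted p = 0.417), or 0.24 without mock library 3. Scn4a, the sodium channel of the muscle action potential, ranged over 566 to 636 CPM in female C-del muscle, against 422 to 676 CPM in female mock libraries, and over 614 to 744 CPM in male C-del muscle, against 643 to 745 CPM in male mock libraries. Prkar1a, a regulatory subunit of protein kinase A, ranged over 134 to 165 CPM in female C-del muscle, against 153 to 166 CPM in female mock libraries, and over 131 to 149.7 CPM in male C-del muscle, against 134 to 153 CPM in male mock libraries. Ufsp1, a protease of the ubiquitin-like UFM1 that lies just beyond the end of Ache on chromosome 5, stayed between 8.25 and 15.6 CPM in all libraries.

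**Figure D3:**
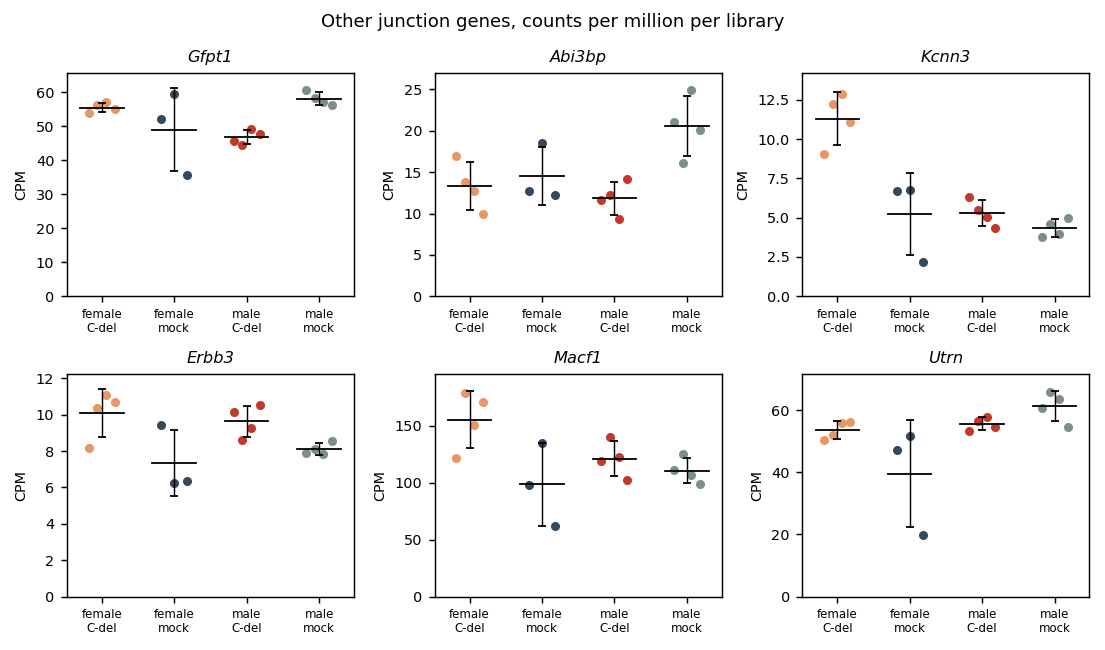
CPM in each library of Gfpt1, Abi3bp, Kcnn3, Erbb3, Macf1 and Utrn (vertical axes from 0, linear), for female C-del, female mock, male C-del and male mock muscle from left to right; points are libraries, long bars means and whiskers ± 1 SD. The male C-del points of Gfpt1 and Abi3bp lie below all male mock points, and female mock library 3 is the low point of Gfpt1, Kcnn3, Macf1 and Utrn.

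Counted by overlap alone, 3 of 37 genes (Dok7, Kcnn3, Ncam1) had every female C-del library above every female mock library, where 5.71% of all genes did, and 1 (Colq) had them all below, where 4.39% did. In males 2 genes (Musk, Erbb3) lay wholly above, where 9.05% of all genes did, and 2 (Abi3bp, Gfpt1) wholly below, where 8.51% did. These shares are near the background or rest on 1 to 3 genes.

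Of the 37 tested genes, 19 had their lowest female value in female mock library 3, against 0 to 6 in each of the other 6 libraries. Utrn, Macf1, Lama5 and Lrp4, with at least 7.93 kb of merged exons each, were among them, and so was Kcnn3, with 2.88 kb. Rapsn, with 1.63 kb, was highest there. The share of all genes with their lowest value in that library was not counted. The 902 long genes outside the junction set were low there too, by a median of 0.56 log2 units. In the males the long genes of each library lay within -0.04 to 0.03 log2 units of the table's median. The part of transcript length in the female estimates was not tested, and values without that library stand beside the genes above.

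**Figure D4:**
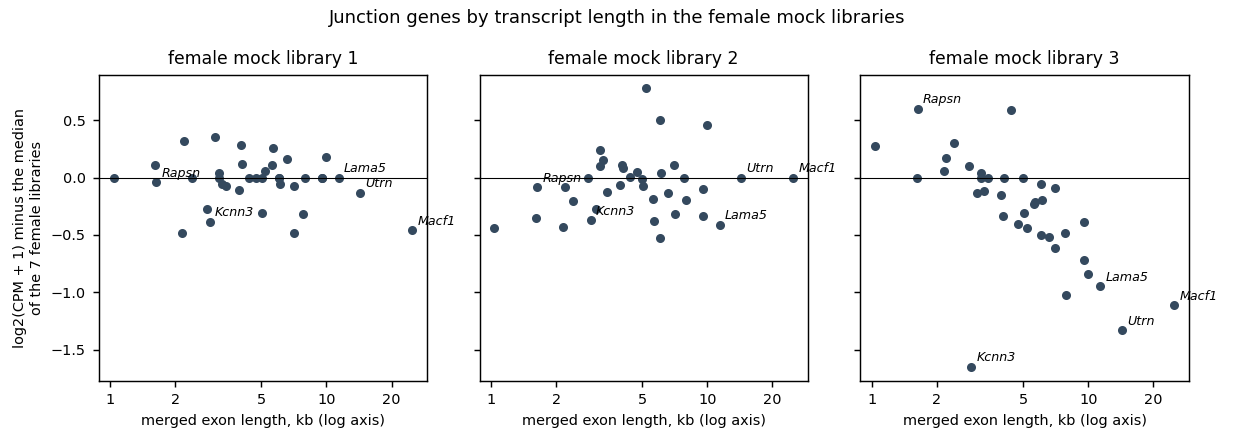
Deviation of each of the 37 tested junction genes in the 3 female mock libraries (1 panel each), as log2(CPM + 1) minus the median of the 7 female libraries, against merged exon length in kb on a log axis; points are genes. In library 3 most genes of long transcripts lie below 0, Utrn and Macf1 among them, while the panels of libraries 1 and 2 show no such slope.

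Levels were compared between genes per kb of merged exons, as CPM per kb (RPKM), with second entries added. Whether the 2 entries of a gene split its reads or both count them was not tested. The places of Chrne among the subunits and of Rapsn on the path depend on that addition. In female mock muscle the receptor subunits ran in the order Chrnb1 (12.7 ± 2.85 RPKM), Chrne (3.82 ± 0.878), Chrna1 (2.97 ± 0.795), Chrnd (0.946 ± 0.305) and Chrng (0.105 ± 0.0913) (mean ± SD, n = 3). The same order held in male mock muscle, with Chrnb1 at 13.2 ± 0.666, Chrne at 4.97 ± 0.781, Chrna1 at 2.28 ± 0.514, Chrnd at 1.03 ± 0.347 and Chrng at 0.0297 ± 0.0359 RPKM (n = 4). In females the ranges of Chrne and Chrna1 overlapped, and the other neighbours did not overlap in either sex. On the path, Rapsn (19.8 ± 5.81 in female and 16.9 ± 1.62 RPKM in male mock muscle) and Crk (17.2 ± 2.83 in female and 18.8 ± 0.413 RPKM in male mock muscle) were the highest, and Agrn was the lowest (1.21 ± 0.235 in female and 1.48 ± 0.0430 RPKM in male mock muscle). Of all members Scn4a was the most expressed, at 83.2 ± 19.2 RPKM in female and 105 ± 6.999 RPKM in male mock muscle.

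Musk and Dok7 differed between the mock muscle of the sexes. Musk stood at 2.38 ± 0.113 RPKM in female and 6.40 ± 0.639 RPKM in male mock muscle, and Dok7 at 4.34 ± 0.145 RPKM in female and 9.03 ± 0.302 RPKM in male mock muscle. Both genes were lower in every female than in every male library, C-del included. The tables were scaled separately, so these levels are given without a test. Of the 37 genes, 2 (Lamb2, Gramd1b) had every female mock library above every male mock library, where 14.1% of all genes did, and 6 (Musk, Dok7, Crkl, Ache, Lama5, Utrn) had them all below, where 11.9% did. Lama5 and Utrn are long transcripts that were low in female mock library 3.

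**Figure D5:**
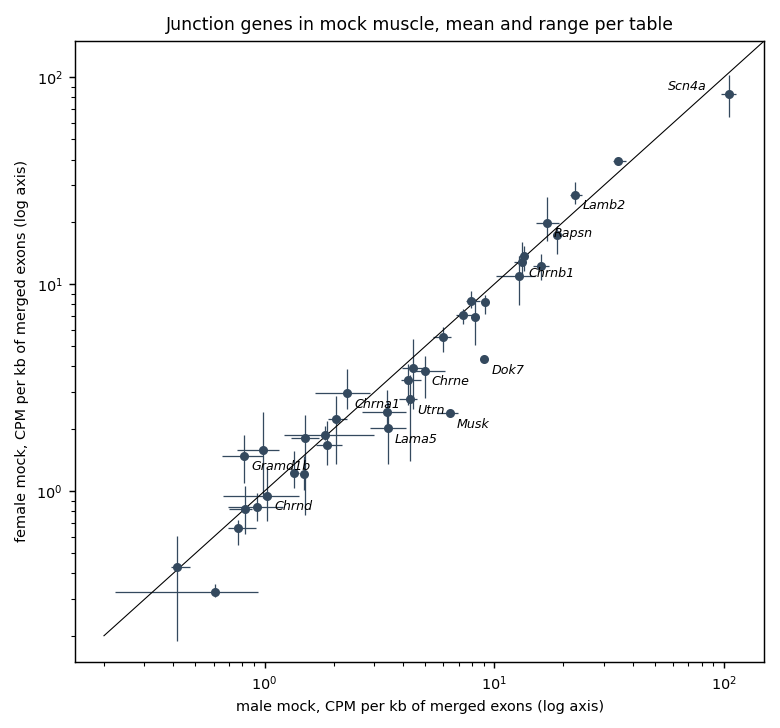
Level of the 37 tested junction genes in female mock (vertical) against male mock muscle (horizontal), in CPM per kb of merged exons on log axes; points are means, bars the range over libraries and the line marks equal levels. Musk and Dok7 lie below the line, with Musk at 2.38 RPKM in female and 6.40 RPKM in male mock muscle.

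Genes that act beside the junction set were counted in 8 further lists. In females 0 genes of any of the 8 passed in edgeR. An unadjusted p under 0.05 was found for 0 to 4 a list, where 1692 of all 14220 genes had one. DESeq2 called 2 of the basal lamina, 1 of neuregulin and ERK feedback and 1 of the denervation response. Its total over all genes in females is given below, with the dependence on the processing. List medians of the log2 fold change ran from 0.02 to 0.33 in females, beside -0.01 over all genes, and from -0.10 to 0.14 in males. Female mock library 3 had the lowest sum of several of these lists, and medians without it were not computed. Of 18 partners of MuSK signalling, 3 rose, where 5.8% of all genes did, and 4 fell, where 5.37% did, in males. Among those that rose was Hsp90ab1, a chaperone that stabilises rapsyn, at 1266 ± 53.1 CPM in male C-del muscle, against 1023 ± 29.7 CPM in male mock muscle (0.31 ± 0.05, adjusted p = 0.000622). Pak1, a kinase of the actin cytoskeleton, fell (-0.56 ± 0.10, adjusted p = 0.00233), as did the kinase Fyn (-0.41 ± 0.10, adjusted p = 0.0164) and Ctnnb1, β-catenin (-0.16 ± 0.04, adjusted p = 0.0189). On average over both sexes 3 of the 18 rose, Caskin2, Hsp90ab1 and Ptpn11, where 2.42% of all genes did.

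Of 12 tested genes of the synaptic basal lamina, 1 rose in males, the collagen IV chain Col4a1 (0.25 ± 0.06, adjusted p = 0.0157), where 5.8% of all genes did, and 3 rose on average, where 2.42% did: Col4a1 (0.34 ± 0.08, adjusted p = 0.0167), Col4a2 (0.31 ± 0.08, adjusted p = 0.0321) and the laminin chain Lama2 (0.38 ± 0.10, adjusted p = 0.0331). The list summed to 534, 610.3 and 408 CPM in female mock libraries, lowest in library 3. Without that library the average was 0.29 (adjusted p = 0.0192) for Col4a1 and 0.23 (adjusted p = 0.0251) for Col4a2, both still called, and 0.33 (adjusted p = 0.0642) for Lama2, which was not. Endothelial cells are a source of collagen IV, and of their 5 markers edgeR called 0 in any comparison. An unadjusted p under 0.05 was found for 3 in females, 2 in males and 3 on average. Over all genes tested it was found for 1692 of 14220 in females, 3774 of 14543 in males and 3004 of 15272 on average. DESeq2 called 1 marker in females and 2 on average. The markers summed to 328 to 348 CPM in female C-del muscle, against 258 to 294 CPM in female mock muscle, and to 343 to 368 CPM in male C-del muscle, against 339 to 359 CPM in male mock muscle. The part of endothelial cells in the rise of these chains was not tested.

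Of 12 tested genes of neuregulin and ERK feedback, 1 rose in males, where 5.8% of all genes did, and 1 fell, where 5.37% did. The phosphatase Dusp5 rose (1.13 ± 0.34, adjusted p = 0.0455, at no more than 1.81 CPM in any male library) and Spry1 fell (-0.24 ± 0.07, adjusted p = 0.0341). On average 1 rose, where 2.42% of all genes did: Spry4, a feedback inhibitor of ERK (0.65 ± 0.10, adjusted p = 0.00188). DESeq2 called 0 of the 12 in males. Of 8 genes of the dystrobrevin and syntrophin scaffold, Ank3 was among those that rose in males (0.18 ± 0.05, adjusted p = 0.0328). On average 1 of the 8 rose, Plec (0.34 ± 0.08, adjusted p = 0.0315), where 2.42% of all genes did. Female mock library 3 had the lowest sum of this list, 1193 CPM against 1974 and 1853 CPM in the other female mock libraries, and without it Plec was 0.25 (adjusted p = 0.00822).

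Among 10 genes of the hexosamine pathway and of glycosylation in congenital myasthenia, 1 rose in males, where 5.8% of all genes did. It was Gmppb, which makes GDP-mannose (0.32 ± 0.09, adjusted p = 0.0299), whereas Gfpt1 fell. Of the 5 protein kinase A subunits, 0 passed in edgeR in males or on average. Of the genes of synaptic myonuclei, 3 were tested in males and 4 on average, and 0 passed in edgeR. In males 1 gene of each list had an unadjusted p under 0.05, where 3774 of all 14543 genes did. DESeq2 called 1 of the synaptic myonuclei list. Of 11 tested genes of the denervation response outside the junction, 1 rose in males, where 5.8% of all genes did. The same gene, the cell cycle inhibitor Cdkn1a, rose on average, where 2.42% of all genes did. It stood at 23.4 ± 6.21 CPM in female C-del muscle, against 16.3 ± 3.53 CPM in female mock muscle, and at 10.2 ± 1.12 CPM in male C-del muscle, against 5.85 ± 1.11 CPM in male mock muscle (0.80 ± 0.13, adjusted p = 0.00128 in males).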

How the data were processed

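RNA-seq libraries of tibialis anterior were grouped by the sample labels. The authors deposited expected counts per gene: with a tolerance of 0.001, between 14.6% and 17.3% of a library's values had a fractional part, and all were rounded before testing. Per the submitters' processing notes, the tool and build named for the deposited expected counts were featureCounts 2.0.0 and GRCm38.p6. Libraries were stranded, per the labels' protocols, but which aligner and counting options were used, and whether strand was, is not given in the sources used here, so overlapping genes and the 2379 second entries are less sure. Male columns match samples by group only.

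Genes kept by filterByExpr (minimum count 10) were TMM-scaled and tested with edgeR 4.0.16 (robust quasi-likelihood test, R 4.3.3, limma 3.58.1) and, as an alternative, DESeq2 1.42.0. Each sex was fitted alone, and the average and the female minus male effect came from 1 fit of all 15 libraries. SE was taken as log2 fold change over the square root of F, and intervals are 2 SE on each side. Deviations use log2(CPM + 1). Tables and plots used Python 3.11.15, numpy 2.4.6, pandas 2.3.3 and matplotlib 3.10.9. The tests were tried on simulated data. The genes and lists were chosen with earlier results of these data known. By the rule for naming, all 39 genes are named, receptor and path genes and any other gene called are given in every library, and up to 4 called genes of each further list are named, except 1 that is not reported here. Tests were fitted on whole tables and adjusted over all genes. The alternatives were other tools, scalings and filters, libraries left out, a replicate block, and, chosen after seeing the data, second entries added up and neighbouring male columns summed.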

Additional observations from a re-analysis of the deposited data

Results flagged for a closer look

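In 5 of 111 groups of 4 libraries (1 group of libraries for 1 gene each), 1 library stood far from the other 3, where chance alone flags about 1 in 20 groups, or 5.55. Chrna1 was 11.0 CPM in female C-del library 3, against 8.09 to 8.46 CPM in the others. Chrnd was 2.02 CPM in female C-del library 2, against 2.86 to 3.02 CPM. Agrn was 10.6 CPM in female C-del library 4, against 11.6 to 11.7 CPM. Dtna was 135 CPM in female C-del library 1, against 147 to 149 CPM. Chrne was 5.04 CPM in male mock library 1, against 3.49 to 3.75 CPM.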

How the results depend on the processing

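The count of junction genes called was checked in 16 alternatives for males, 14 for females, and 20 each for the average and the difference. Genes called over the whole table moved more. In females 2 genes were called, but 777 in the fit of all 15 libraries, 376 by DESeq2, 16 with no filter, 4 without mock libraries 2 and 3, and 1 to 1050 with 1 library left out (1050 without mock library 1). In males 1624 were called, but 380 in the fit of all 15 libraries, 767 without mock libraries 3 and 4, 270 with neighbouring columns summed, and 1100 to 1526 with 1 library left out. For the average 673 were called, but 1096 by DESeq2 and 368 to 2085 with 1 library left out, and for the difference 54, but 656 by DESeq2 and 10 to 1817 (2085 and 1817 without female mock library 1, and 368 to 481 without any 1 of the male libraries or female C-del library 2, 3 or 4, and 10 to 35 for the difference without any 1 of those or female mock library 3, and 141 without female mock library 2). Junction genes called higher in females were 1 in the fit of all 15 libraries and 1 by DESeq2, and 0 to 1 with 1 library left out. In males 1 to 3 were called higher with 1 library left out (3 without C-del library 4, 2 without mock library 1), and 1 was called lower in the fit of all 15 libraries and with neighbouring columns summed. On average 4 were called higher and 1 lower by DESeq2, 1 higher without female mock libraries 2 and 3, and 1 to 4 higher and 0 to 2 lower with 1 library left out. For the difference DESeq2 called 1 lower, and with 1 library left out 0 to 2 were called higher and 0 to 1 lower.

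Signs turned for 6 receptor and path genes, whose values were not called. Without male mock libraries 3 and 4 the male value was -0.080 for Chrnd, -0.033 for Chrne and -0.024 for Rapsn, and without male C-del libraries 1 and 2 it was 0.0038 for Crk. Without female mock libraries 2 and 3 the female value was -0.14 for Chrne and 0.049 for Rapsn. With 1 library left out, the female value ran from -0.27 to 0.19 for Chrnd, -0.077 to 0.28 for Chrne and -0.33 to 0.069 for Rapsn, and the male value from -0.0087 to 0.20 for Chrne, -0.11 to 0.093 for Lrp4, -0.018 to 0.054 for Dok7, -0.00026 to 0.11 for Rapsn and -0.022 to 0.0049 for Crk. The cause was not tested.

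Female libraries share numbers between the groups. Deviations of same-numbered libraries had correlations of -0.134, -0.0081 and -0.041, within the -0.206 to 0.225 of unlike-numbered libraries. With so few libraries this check cannot tell whether the numbers pair anything. With the number as a replicate block, 2 genes and 0 junction genes were called in females. Female SE was larger than male SE for most junction genes.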

Other observations

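A RefSeq promoter was matched for 27 of the 39 junction genes, 35 promoters in all. At least 1 CANNTG was found in a promoter of 20 of the 27 genes and at least 1 CCGGAA in a promoter of 5, where 72.3% of all promoters held a CANNTG and 14.9% a CCGGAA, counted per promoter rather than per gene. Macrophage markers differed most among the female mock libraries, at 76.2, 445 and 196 CPM in sum, against 45.0 to 95.3 CPM in female C-del libraries. B and plasma cell markers reached 435 CPM in female mock library 2, against at most 4.40 CPM in every other library. The part of these cells in the female junction values was not tested.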
